A study of Mus musculus with 8 samples.

Results

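State 36 is 1 of 42 cell states into which single-cell RNA profiles of early mouse embryos had been clustered, and it was taken as the column headed 36 in a deposited table of cluster centres. It was described across all 712 genes of that table, first against states 9, 22, 13 and 32 and then against the other 41 states together. The embryos were wild-type and came from oocytes of B6D2F1 females injected with sperm of B6/CAST F1 males, and they were carried by CD-1 surrogates. Whole embryos of a stage were pooled, with the outer extraembryonic tissues retained where that could be done, and 3' libraries were made with 10x Genomics version 2 chemistry. There were 8 libraries over 5 stages: 1 of 10 embryos at day 6.5, 1 of 9 at day 7.0, 1 of 7 and 1 of 4 at day 7.5, and 2 libraries each from a pool of 10 at days 8.0 and 8.5. No group had a mutation or a treatment, and every state column pools the libraries, so that stage and embryo cannot be told apart in any value below.

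A value in the table, called a level here, is the centre of a state for a gene. Levels ran from 0 to 1.79, and their scale and log base are not given in the sources used here. They were therefore compared by subtraction and never as a fold. With 1 value per state there was no replicate, no error and no test, and a difference of 0.5 in level was counted as a description of size. State 36 had a summed level of 99.3 over the 712 genes, the 4th lowest of 42 states, with 65 genes at 0 and 66 at 0.5 or more. The summed levels were 81.6 in state 9, 73.6 in state 22, 120 in state 13 and 139 in state 32. The part of depth in these totals was not tested.

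In the mouse yolk sac the earliest blood arises from mesoderm that also gives rise to vessels, and this primitive wave produces nucleated red cells, megakaryocytes and macrophages. Itga2b, the integrin alpha subunit known as CD41, appears on embryonic cells as they commit to blood and later forms the platelet fibrinogen receptor. Gata1, Tal1, Lmo2 and Runx1 are regulators of that commitment, Klf1 drives the red cell programme, and Etv2, Kdr and Fli1 belong to the shared vessel and blood mesoderm.

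The 5 genes named as markers of state 36 all had their highest level of the 42 states there. Tgfb1, a cytokine that platelets store in granules (GRCm38, chr7:25687002-25705077), stood at 0.872 in state 36, against 0.182 in state 9, 0.141 in state 22, 0.453 in state 13 and 0.714 in state 32. Fermt3, the integrin activator kindlin-3 of blood cells (chr19:6998958-7019469), stood at 0.733 in state 36, against 0.337 in state 9, 0.310 in state 22, 0.139 in state 13 and 0.104 in state 32. Plek, which encodes the platelet protein kinase C substrate pleckstrin (chr11:16971206-17052381), reached 0.670 in state 36, against 0.014 in state 9, 0.0039 in state 22, 0.0077 in state 13 and 0.043 in state 32. These 3 genes had different backgrounds: Plek was close to 0 in every other state, Fermt3 was shared at a lower level with the states 9 and 22, and Tgfb1 was shared chiefly with state 32.

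Itga2b (chr11:102453297-102470122) had a level of 0.638 in state 36, against 0.238 in state 9, 0.119 in state 22, 0.132 in state 13 and 0.294 in state 32. Nfe2, the blood-specific subunit of the factor NF-E2 that platelet formation needs (chr15:103248212-103258403), had 0.496 in state 36, against 0.383 in state 9, 0.368 in state 22, 0.055 in state 13 and 0.013 in state 32. Nfe2 thus differed least from states 9 and 22 among the 5. In the 37 further states the levels of the 4 genes other than Tgfb1 were at most 0.0954, and Tgfb1 reached 0.315 in state 5. Because these markers were chosen on earlier results of the same table, their height in state 36 is a description of the choice.

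The working label, a primitive blood progenitor, was set against gene lists by the median standardised level of their measured members. State 36 ranked 1 of 42 on the list of blood transcription factors and on the list of megakaryocyte and platelet genes, and 3 on the primitive erythroid and endothelial lists. On the blood-forming mesoderm list it ranked 2, or 1 by the mean, but 9 over the 2 members that are on no other list. The platelet list holds all 5 markers, which were chosen for this state, and the transcription factor list holds Nfe2. Without the markers, an alternative chosen after seeing the data, the ranks were still 1, over 4 members of the platelet list and 13 transcription factors. They still rest on lists chosen with results known. The levels did not go against the word blood, while "primitive" and "progenitor" name an origin and a fate that no value in the table measures. It is called state 36 below.

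In all, 23 genes had their highest level of all states in state 36, which is 3.23% of the 712 genes and the 10th largest such count among the states. The margin over the next state was at least 0.25 for 7 of them, a margin chosen after the values were seen. All 9 measured genes of the 30 on the megakaryocyte and platelet list were among the 23, 5 of them being the markers. Their median level was 0.638 in state 36, against 0.238 in state 9, 0.141 in state 22, 0.126 in state 13 and 0.0689 in state 32, while the median over all genes was 0.0294 in state 36.

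The other 4 measured members of that list were Rab27b, Itgb3, F10 and F2r, and membership does not show that a gene is particular to platelets. Rab27b, a small GTPase of granule secretion, had 0.627 in state 36 and at most 0.0689 in the other 41 states. Itgb3, the integrin beta chain that pairs with the product of Itga2b, had 0.501 in state 36, against 0.072 in state 9, 0.040 in state 22, 0.037 in state 13 and 0.021 in state 32, and its next highest level was 0.410 in state 28. Rab27b was therefore near 0 outside state 36, as Plek was, whereas Itgb3 was held by a further state.

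F10, which encodes coagulation factor X, had 0.518 in state 36, against 0.408 in state 9, 0.302 in state 22, 0.126 in state 13 and 0.032 in state 32. F2r, a thrombin receptor, had 0.792 in state 36, against 0.331 in state 9, 0.230 in state 22, 0.610 in state 13 and 0.638 in state 32. F10 was nearer to states 9 and 22, and F2r nearer to states 13 and 32.

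**Figure D1:**
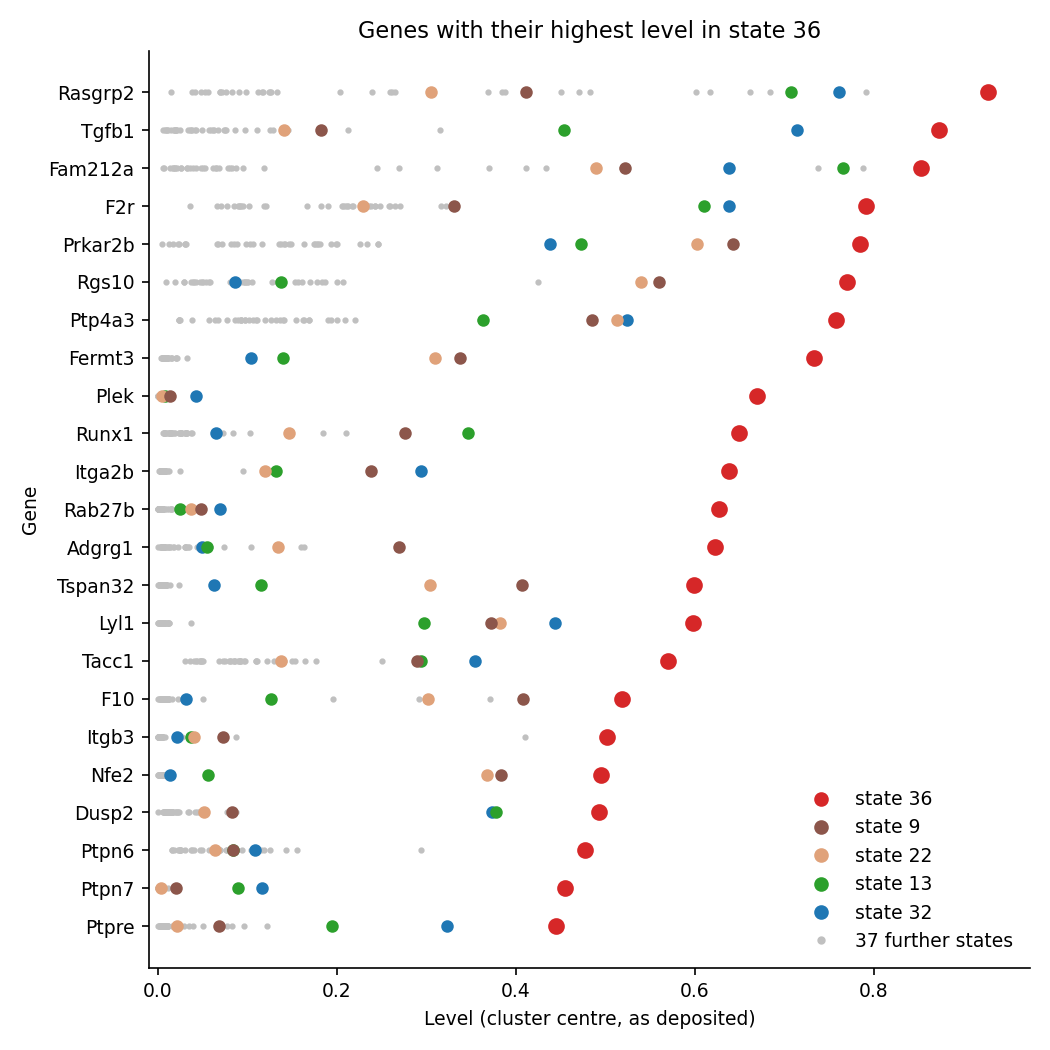
Level in each of the 42 states (horizontal axis, as deposited) of the 23 genes whose level is highest in state 36, ordered by that level; red marks state 36, the other colours states 9, 22, 13 and 32, and grey the 37 further states. Plek, Rab27b and Ptpn7 stand at 0.670, 0.627 and 0.455 in state 36 and at 0.116 or less in every other state, while Rasgrp2 at 0.928 and Fam212a at 0.853 have other states close behind.

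Several of the 23 genes have known parts in signalling downstream of cell-surface receptors. Rasgrp2, which activates the GTPase Rap1 ahead of integrins in platelets, had 0.928 in state 36, against 0.411 in state 9, 0.304 in state 22, 0.707 in state 13 and 0.761 in state 32, and state 29 came next at 0.791. Rgs10, which ends G protein signals, had 0.770 in state 36, against 0.560 in state 9, 0.540 in state 22, 0.138 in state 13 and 0.086 in state 32. Adgrg1, an adhesion receptor of blood progenitors, had 0.622 in state 36, against 0.269 in state 9, 0.134 in state 22, 0.055 in state 13 and 0.049 in state 32. Rgs10 and Adgrg1 separated state 36 from states 13 and 32, and Rasgrp2 separated it more from states 9 and 22.

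Prkar2b, a regulatory subunit of protein kinase A, stood at 0.785 in state 36, 0.642 in state 9, 0.602 in state 22, 0.472 in state 13 and 0.438 in state 32. Tspan32, a tetraspanin of blood cells, stood at 0.599 in state 36, 0.407 in state 9, 0.304 in state 22, 0.115 in state 13 and 0.063 in state 32. Both followed one order, with states 9 and 22 next after state 36. Fam212a (0.853) and Tacc1 (0.570) were also highest in state 36, with the next states within 0.25.

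The promoters of the genes that were highest in state 36 were searched for 3 short motifs. Windows of 4 genes that hold a match are shown as examples of each motif. Windows of Ptpn6 and Ptpre also held matches and are not shown. RefSeq promoters on GRCm38.p6 were found for 17 of the 23 genes, in 24 windows of 250 bases before the start. Matches were counted over whole windows, which may include exon bases, while each window is printed only up to the first annotated exon. Capitals mark the match: TGAGTCA, a core shared by NF-E2 and AP-1 factors, in Adgrg1 and F2r, GGAAGT of ETS factors in F10, and AGATAA, 1 of 2 GATA motifs searched beside TGATAA, in Tspan32. Both strands were searched, and none of these motifs contains another.
Adgrg1: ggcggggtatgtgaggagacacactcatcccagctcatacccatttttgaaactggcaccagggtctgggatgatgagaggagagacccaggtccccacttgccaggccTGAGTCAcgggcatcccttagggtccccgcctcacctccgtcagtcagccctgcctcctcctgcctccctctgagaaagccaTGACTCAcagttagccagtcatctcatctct
F2r: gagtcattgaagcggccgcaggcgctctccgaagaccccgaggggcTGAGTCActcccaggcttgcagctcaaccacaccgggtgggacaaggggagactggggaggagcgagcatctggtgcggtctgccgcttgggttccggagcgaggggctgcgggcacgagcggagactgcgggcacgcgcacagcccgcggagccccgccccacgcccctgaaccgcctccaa
F10: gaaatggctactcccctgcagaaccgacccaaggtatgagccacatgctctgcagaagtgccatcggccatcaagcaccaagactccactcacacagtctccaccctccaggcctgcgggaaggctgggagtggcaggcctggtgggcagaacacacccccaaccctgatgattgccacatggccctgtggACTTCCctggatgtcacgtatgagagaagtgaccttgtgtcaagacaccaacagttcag
Tspan32: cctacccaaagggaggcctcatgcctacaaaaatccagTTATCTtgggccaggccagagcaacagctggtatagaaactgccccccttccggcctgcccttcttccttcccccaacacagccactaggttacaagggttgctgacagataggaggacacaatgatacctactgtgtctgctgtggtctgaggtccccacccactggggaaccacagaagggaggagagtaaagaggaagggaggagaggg

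The Adgrg1 window as printed is chr8:94984149-94984370 on the plus strand, within the gene. It holds TGAGTCA on both strands, at bases 141 to 135 and 59 to 53 before the start. The F2r window as printed is chr13:95618488-95618716 on the minus strand and holds TGAGTCA at bases 204 to 198. The F10 window is chr8:13037058-13037307 on the plus strand, with its match on the opposite strand at bases 59 to 54. The Tspan32 window is chr7:143004796-143005045 on the plus strand, with its match on the opposite strand at bases 212 to 207.

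TGAGTCA was present in 3 of the 24 windows (12.5%), against 3.61% of the 664 windows of the table's genes and 4.46% of all 32851 RefSeq windows. GGAAGT was present in 4 of the 24 (16.7%), against 15.1% of the table's windows and 19.7% of all. A GATA motif was present in 2 of the 24 (8.33%), against 11.9% of the table's windows and 16.6% of all. The 2 last shares lay near or below their backgrounds, and the first rests on 3 windows, of Adgrg1, F2r and Ptpre. A match in letters is not a bound site.

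Among the measured members of the blood transcription factor list (14 of 22), 10 were at 0.25 or more in state 36, as were 18.3% of all genes. The median of the 14 was 0.492 in state 36, against 0.196 in state 9, 0.113 in state 22, 0.322 in state 13 and 0.295 in state 32. They fell into groups by the neighbour with which state 36 shared them. Gata1, the master regulator of red cells and megakaryocytes, was held at 0.591 in state 36, against 0.657 in state 9, 0.628 in state 22, 0.275 in state 13 and 0.012 in state 32. Klf1, in contrast, was 0.330 in state 36, against 0.847 in state 9, 0.854 in state 22, 0.098 in state 13 and 0.022 in state 32. State 36 thus had Gata1 near the level of states 9 and 22 and Klf1 between them and state 32.

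Runx1, which blood stem cell formation requires, was highest in state 36 at 0.650, against 0.276 in state 9, 0.146 in state 22, 0.346 in state 13 and 0.065 in state 32. Lyl1, a partner of Lmo2 related to Tal1, was also highest there at 0.598, against 0.372 in state 9, 0.382 in state 22, 0.297 in state 13 and 0.443 in state 32. Tal1 (0.572 in state 36) and Lmo2 (0.800 in state 36) had their top level in state 13 among these 5 states, at 0.716 and 0.914. Lyl1, Tal1 and Lmo2 were thus at 0.25 or more in all 5 states, and Runx1 was not.

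Another group of regulators was shared with states 13 and 32. Fli1, an ETS factor of vessels and megakaryocytes, had 0.489 in state 36, against 0.043 in state 9, 0.026 in state 22, 0.544 in state 13 and 0.654 in state 32. Hhex, a homeobox factor of the vessel and blood mesoderm, had 0.480 in state 36, against 0.117 in state 9, 0.045 in state 22, 0.711 in state 13 and 0.562 in state 32. Klf2, which endothelium expresses under flow, had 0.655 in state 36, against 0.066 in state 9, 0.080 in state 22, 0.277 in state 13 and 0.771 in state 32. These 3 were at 0.117 or less in states 9 and 22.

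Mef2c, a factor of megakaryocytes as well as of heart and vessel, had 0.778 in state 36, against 0.050 in state 9, 0.028 in state 22, 0.113 in state 13 and 0.539 in state 32, and it was higher only in state 21, at 1.06. Etv2 was 0.224 in state 36, against 0.047 in state 9, 0.038 in state 22, 0.958 in state 13 and 0.308 in state 32. Gata2 was 0.240 in state 36, against 0.071 in state 9, 0.035 in state 22, 0.465 in state 13 and 0.285 in state 32. The early mesoderm regulators Etv2 and Gata2 were therefore farther below state 13 than Fli1 was.

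**Figure D2:**
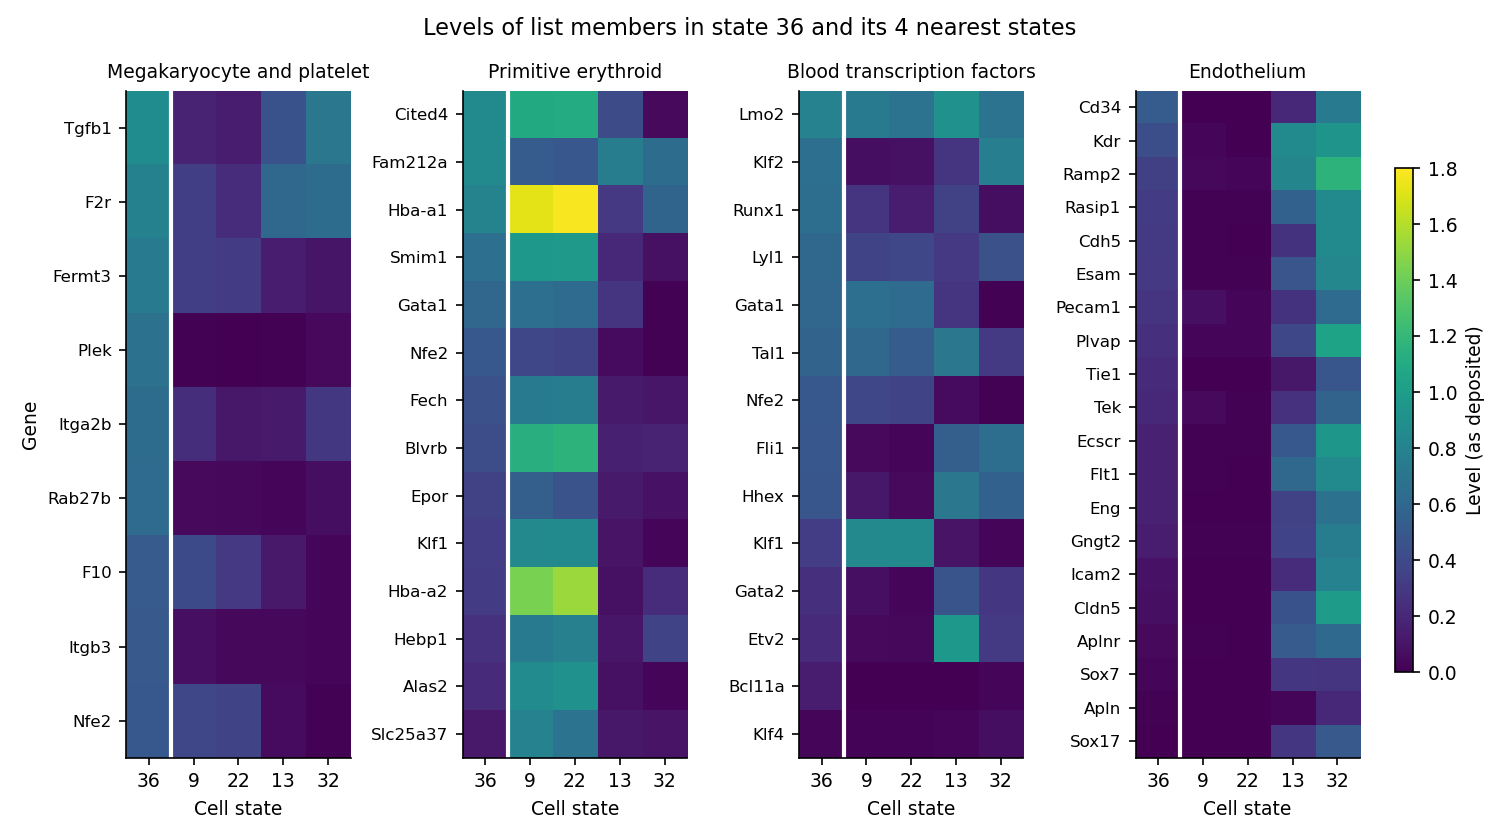
Levels (colour, as deposited) of measured members of 4 gene lists in states 36, 9, 22, 13 and 32, with genes ordered by their level in state 36. State 36 is brightest down the platelet list, darker than states 9 and 22 in most erythroid genes such as Alas2 (0.222, against 0.865 in state 9), and darker than state 32 in every endothelial gene.

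The primitive erythroid list (15 of 33 measured) placed state 36 between its neighbours. Its median level was 0.428 in state 36, against 0.847 in state 9, 0.854 in state 22, 0.132 in state 13 and 0.0901 in state 32. Of the 15 genes, 13 lay below both states 9 and 22, where 30.5% of all genes did, and 14 above state 32, where 27.4% of all genes did. Counted by a difference of 0.5 below states 9 and 22, there were 8 of the 15, where 1.83% of all 712 genes were so counted. The exceptions were Nfe2 and Fam212a, which were highest in state 36.

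Alpha globin, the oxygen carrier subunit, was measured by Hba-a1 at 0.808 in state 36, against 1.72 in state 9, 1.78 in state 22, 0.298 in state 13 and 0.581 in state 32. Hba-a2 was 0.316 in state 36, against 1.44 in state 9, 1.53 in state 22, 0.083 in state 13 and 0.227 in state 32, and the beta globin gene Hbb-bs was 0.384 in state 36, against 0.999 in state 9, 1.22 in state 22, 0.139 in state 13 and 0.308 in state 32. All 3 measured globins of the 11 listed were lower than in states 9 and 22 by over 0.5. Hbb-bh1, Hbb-y and Hba-x, which are on the globin and primitive erythroid lists, were not analysed here. Reads of Hba-a1 and Hba-a2 can be shared between near-identical copies, so their separate levels are uncertain. State 32 also held these globins at up to 0.581. Outside the states named here, Hbb-bs reached 0.645 in state 25, above state 36, which ranked 12 from the top for that gene. Hba-a2 reached 0.354 in state 40, also above state 36, which ranked 4. Hba-a1 reached 0.664 in state 40, below state 36, which ranked 3. Whether free RNA contributes to the levels in any state was not tested.

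Alas2, the erythroid enzyme that opens haem synthesis, was 0.222 in state 36, against 0.865 in state 9, 0.911 in state 22, 0.083 in state 13 and 0.028 in state 32. Slc25a37, the mitochondrial iron importer, was 0.126 in state 36, against 0.798 in state 9, 0.685 in state 22, 0.114 in state 13 and 0.093 in state 32. Slc25a37 was thus at the level of state 13, and Alas2 was nearer to states 13 and 32 than to states 9 and 22.

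Not all erythroid genes were that low. Cited4, a transcriptional cofactor, was 0.860 in state 36, against 1.09 in state 9, 1.11 in state 22, 0.422 in state 13 and 0.047 in state 32. Smim1, which carries the Vel blood group antigen in humans, was 0.661 in state 36, against 0.961 in state 9, 0.975 in state 22, 0.198 in state 13 and 0.079 in state 32. Epor, the erythropoietin receptor, was 0.353 in state 36, against 0.546 in state 9, 0.464 in state 22, 0.133 in state 13 and 0.090 in state 32. These 3 were nearer to states 9 and 22 than to state 32.

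The endothelial list (20 of 24 measured) showed the opposite neighbour. All 20 were below state 32, as were 72.2% of all genes, and 12 of them were so by 0.5, where 4.07% of all genes were so counted. Their median was 0.185 in state 36, against 0.0110 in state 9, 0.0053 in state 22, 0.358 in state 13 and 0.775 in state 32. All 20 were above both states 9 and 22, as were 53.2% of all genes on levels as deposited. Once every state had its own median subtracted, 18 were so. The median difference over all genes from the mean of states 9 and 22 was then -0.0118. Against state 13, 16 were lower on levels as deposited, a share near the 72.3% of all genes that were lower there. On the centred scale 15 of the 20 were lower. The median difference from state 13 over all genes was then positive, at 0.0318, so that most genes were not lower on that scale.

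Kdr, the VEGF receptor of vessel and blood mesoderm, was 0.436 in state 36, against 0.026 in state 9, 0.0059 in state 22, 0.864 in state 13 and 0.932 in state 32. Cdh5, the VE-cadherin of endothelial junctions, was 0.308 in state 36, against 0.013 in state 9, 0.0027 in state 22, 0.261 in state 13 and 0.856 in state 32. Cd34, a sialomucin of endothelium and blood progenitors, was 0.525 in state 36, against 0.0040 in state 9, 0.00060 in state 22, 0.206 in state 13 and 0.748 in state 32. Cdh5 and Cd34 were above state 13, and Kdr was below it.

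Levels varied among the other endothelial genes. Cldn5, a tight junction claudin, was 0.074 in state 36, against 0.450 in state 13 and 0.995 in state 32. Plvap, of the diaphragms of vessel pores, was 0.240 in state 36, against 0.393 in state 13 and 1.04 in state 32. Sox17, a factor of arterial endothelium, was 0.0069 in state 36, against 0.283 in state 13 and 0.501 in state 32.

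Over all genes, state 36 was higher than states 9 and 22 by 0.5 in 14 (1.97%) and lower in 13. A gene counted here lay outside the range of both states and differed from their mean by 0.5. The 5 largest positive differences were in Arpc1b (0.76), Mef2c (0.74), Tgfb1 (0.71), Ctla2a (0.69) and Plek (0.66). Arpc1b, a subunit of the actin-nucleating Arp2/3 complex, stood at 0.952 in state 36, against 0.217 in state 9, 0.174 in state 22, 0.581 in state 13 and 0.907 in state 32. Ctla2a, an inhibitor of cysteine proteases, stood at 0.709 in state 36, against 0.017 in state 9, 0.019 in state 22, 0.309 in state 13 and 0.923 in state 32. All but Plek of these 5 were also held by state 32 at 0.5 or more.

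The remaining positive differences were in Tpm4, Rab27b, Klf2, Rasgrp2, Hapln1, Fn1, Cd34, Dnmt3b and F2r. Dnmt3b, a DNA methyltransferase of early embryonic cells, stood at 0.690 in state 36, against 0.210 in state 9, 0.129 in state 22, 0.555 in state 13 and 0.332 in state 32. The 13 lower genes were led by the globins Hba-a2 and Hba-a1 and included Hbb-bs and Blvrb, and 8 of the 13 belong to the erythroid list. The range ended with Mllt3, a regulator of blood stem cells and red cell fate in humans, at 0.289 in state 36, against 0.777 in state 9 and 0.810 in state 22.

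Against state 13, state 36 was higher in 8 genes (1.12%) and lower in 7 (0.983%). The higher genes were Mef2c, Plek, Rgs10, Rab27b, Fermt3, Adgrg1, Hba-a1 and Itga2b, with differences of 0.66 to 0.51. The lower genes were Phlda2, Etv2, Rspo3, Gadd45g, Mest, Cd24a and Krt8. Phlda2, an imprinted growth regulator, was 0.193 in state 36, against 1.11 in state 13, and Rspo3, a secreted Wnt pathway enhancer, was 0.0905 in state 36, against 0.773 in state 13. Of the genes counted, 53.3% were higher, or 64.7% after such centring, when 11 were higher and 6 lower.

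Against state 32, state 36 was higher in 11 genes (1.54%) and lower in 29. The higher genes included Cited4, Rgs10, Fermt3, Plek, Runx1, Smim1, Gata1, Adgrg1, Rab27b and Tspan32. Among the lower genes, Cldn5 and the intermediate filament gene Vim had the widest gaps, Vim being 0.459 in state 36, against 1.32 in state 32. Of the genes counted, 27.5% were higher, or 39.5% after centring, when 15 were higher and 23 lower. Only Plek and Rab27b were counted higher in all 3 comparisons, and no gene was counted lower in all 3.

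**Figure D3:**
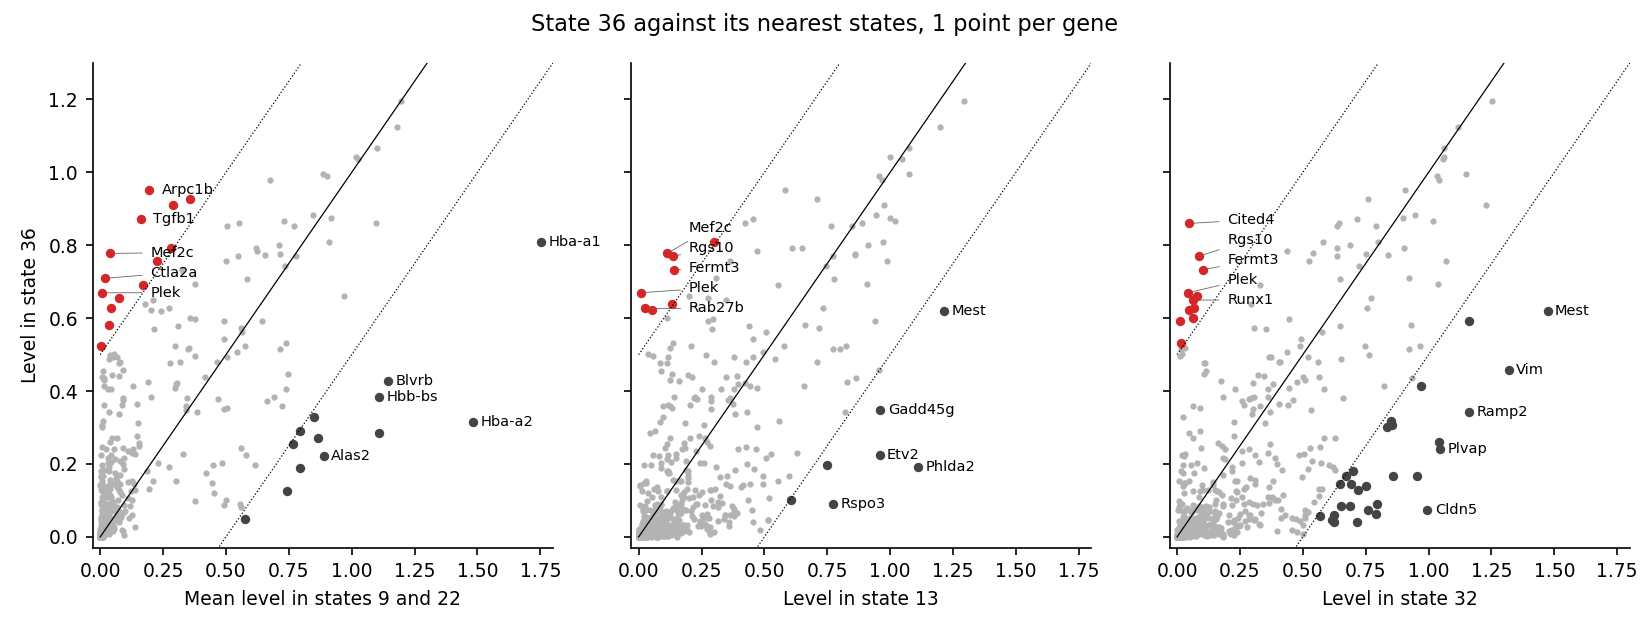
Level in state 36 (vertical axis) against the mean level in states 9 and 22, the level in state 13 and the level in state 32 (horizontal axes, as deposited), 1 point for each of 712 genes; the solid line is equality, the dotted lines a difference of 0.5, red points are counted higher in state 36 and dark points lower. The genes counted higher number 14, 8 and 11 from left to right, and those counted lower 13, 7 and 29, with Hba-a1 and Hba-a2 farthest to the right in the left panel.

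Across the 712 genes, with each gene centred on its mean over the 42 states, the profile of state 36 had a Pearson r of 0.613 with state 9, 0.570 with state 22, 0.543 with state 13 and 0.515 with state 32. The next state, 35, had 0.199, and the lowest, state 16, had -0.325. The 4 neighbours were far less alike across the 2 sides: r was 0.985 between states 9 and 22 and 0.723 between states 13 and 32, but between 0.056 and 0.166 for pairs that cross from one side to the other. Genes, the points of these correlations, are not independent, and all states share the same libraries.

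**Figure D4:**
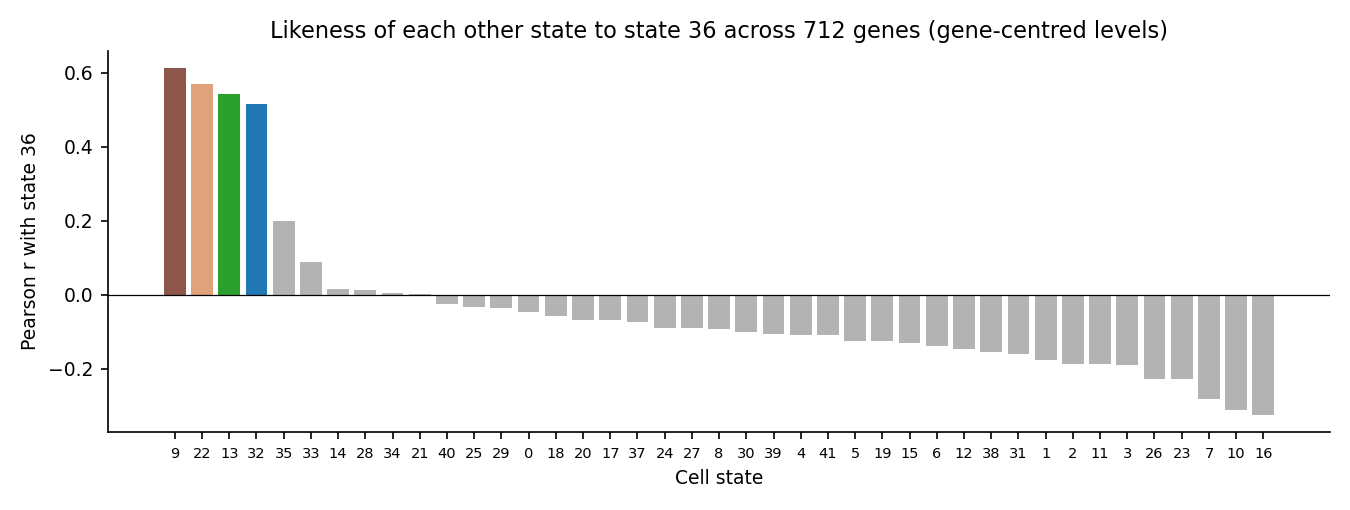
Pearson r across 712 gene-centred levels between state 36 and each of the other 41 states (horizontal axis, state number, ordered by r). States 9, 22, 13 and 32, in colour, lie between 0.515 and 0.613, and the next bar, state 35, is at 0.199.

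State 36 was then placed gene by gene between state 32, set to 0, and the mean of states 9 and 22, set to 1, over the 80 genes in which those ends differed by 0.5. Its median place was 0.626, with 48 genes nearer to states 9 and 22 and 32 genes nearer to state 32. That middle value joined separate patterns. In the 23 genes that were higher in states 9 and 22 the median place was 0.262, and 18 of the 23 were nearer to state 32. In the 57 genes higher in state 32 it was 0.726, and 43 of the 57 were nearer to states 9 and 22. State 36 was therefore nearer to the lower end in most genes of both kinds.

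The genes that departed from this pattern included Gata1 at a place of 0.918, Cited4 at 0.773 and Smim1 at 0.654, which were nearer to states 9 and 22 than to state 32. On the other side, Klf2 at 0.167, Fli1 at 0.266 and Cd34 at 0.299 were nearer to state 32. Mef2c, Tgfb1 and Arpc1b lay beyond state 32, and no gene lay beyond states 9 and 22. Hba-a2 at 0.0710 and Slc25a37 at 0.0517 were close to state 32, and Cldn5 at 0.931 was close to states 9 and 22. A centre is an average, so that cells holding both programmes at once and a mixture of cells holding each cannot be told apart in these values.

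**Figure D5:**
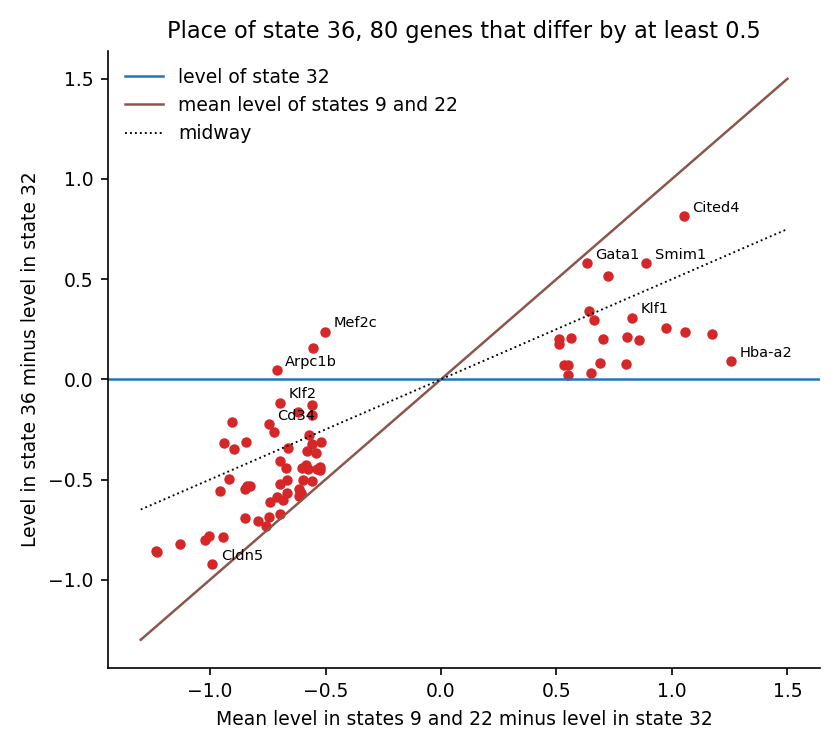
Level in state 36 minus level in state 32 (vertical axis) against mean level in states 9 and 22 minus level in state 32 (horizontal axis) for the 80 genes that differ by at least 0.5 between those ends; the blue line marks the level of state 32, the brown line that of states 9 and 22 and the dotted line the midpoint. Most points lie nearer to the lower of the ends, with Gata1 and Cited4 near the brown line and Mef2c and Arpc1b above the blue line.

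With a level of 0.25 taken as held, a limit chosen after the values were seen, state 36 held 130 of the 712 genes (18.3%). Of these, 50 were held by states 9, 22, 13 and 32 as well. A further 18 were held with both states 9 and 22 but with neither 13 nor 32, among them Rgs10, Fermt3, Smim1, Tspan32, F10, Nfe2 and Epor. State 36 shared 40 with state 13 or 32 but with neither 9 nor 22. It alone of the 5 held 7 genes, Plek, Rab27b, Itgb3, Ptpn6, Ptpn7, mt-Atp8 and Igsf3, and the last pair, named after their values were seen, were held higher in states outside these 5. Conversely, 19 genes were held by both states 9 and 22 and not by state 36, and 92 were held by state 32 and not by state 36.

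Of the 4 measured genes on the myeloid list of 26, state 36 had Ptpn6, a tyrosine phosphatase of blood cells known as SHP-1, at 0.477, against 0.084 in state 9, 0.063 in state 22, 0.084 in state 13 and 0.108 in state 32. Arhgdib, a signalling regulator of blood cells, was 0.493 in state 36, against 0.045 in state 9, 0.058 in state 22, 0.118 in state 13 and 0.521 in state 32. The other 2 members, Srgn and Ctsc, were under 0.25 in all 5 states, and were highest in state 14 at 1.38 and in state 4 at 0.963. State 36 ranked 1 of 42 on this list, most of whose genes were not analysed here, so that the rank rests on few genes.

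In the TGF-beta and BMP list (8 of 23 measured), Tgfb1 was the only member at 0.25 or more in state 36, a level that 18.3% of all genes reached. Eng, an endothelial co-receptor of the pathway, was 0.166 in state 36, against 0.0061 in state 9, 0.0041 in state 22, 0.353 in state 13 and 0.670 in state 32. Bambi, a decoy receptor, was 0.227 in state 36, against 0.164 in state 9, 0.108 in state 22, 0.526 in state 13 and 0.506 in state 32. In the integrin and actin list (6 of 18 measured) 4 genes, Itga2b, Itgb3, Fermt3 and Plek, were highest in state 36, beside 3.23% of all genes. All 4 are also on the platelet list, and all but Itgb3 are markers chosen for this state. Of the other members, Arhgdib was highest in state 32, and Fermt1 was 0.0060 in state 36.

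Markers of other tissues were low. So were most genes: over all 712, only 18.3% were at 0.25 or more in state 36 and 65 were at 0. Over the visceral endoderm list (15 of 19 measured) no gene reached 0.25 in state 36, its highest being 0.203. The summed level of 0.997 was the lowest of the 42 states, which ran up to 19.4. It was hardly below state 9, also at 0.997, and state 22, at 1.03. Over the extraembryonic ectoderm list (12 of 15 measured) none reached 0.25, the summed level was 0.987 in state 36 and states ran from 0.790 to 9.69, and 1 gene was at 0. The nascent mesoderm list (11 of 12 measured) had 4 genes at 0 and a single gene, Fgf3, at 0.25 or more. Its summed level was 0.582 in state 36, over a range of 0.117 to 8.07.

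The epiblast list (13 of 13 measured) had 4 genes at 0 in state 36 and only Dnmt3b at 0.25 or more, and its summed level was 0.916, over a range of 0.267 to 10.2. The cardiac list (13 of 14 measured) had 1 gene at 0 and only Tnni1 at 0.25 or more, and its summed level was 0.834, over a range of 0.124 to 17.8. Tnni1, the slow skeletal troponin I, was 0.477 in state 36, against 0.274 in state 9, 0.284 in state 22, 0.112 in state 13 and 0.112 in state 32, and 1.42 in state 21. Fgf3, a secreted growth factor, was 0.516 in state 36, against 0.434 in state 9, 0.267 in state 22, 0.774 in state 13 and 0.017 in state 32. The extraembryonic mesoderm list (16 of 19 measured) had Vim and Igf2 at 0.25 or more in state 36, and both were lower there than in states 13 and 32.

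Set against the mean of the other 41 states, 22 genes were higher by 0.5 in state 36 (3.09%) and 5 lower (0.702%). The higher genes are described above, except Ptp4a3, a phosphatase of the PRL family, at 0.757 in state 36 against a mean of 0.155. The 5 lower ones were Cd24a, a surface glycoprotein of epithelial and immature cells, at 0.196 in state 36 against a mean of 0.857, Phlda2 at 0.193 against 0.787, the epithelial keratins Krt8 at 0.102 against 0.664 and Krt18 at 0.154 against 0.695, and Igfbp2, an insulin-like growth factor binding protein named after its values were seen, at 0.0607 against 0.597. State 36 alone had the lowest level of all states in 52 genes (7.3%), Krt8 among them, and ties at the lowest level were not counted.

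The 10 genes whose pattern over the other 41 states was most like the mean of the 5 standardised markers were Lyl1 (Pearson r of 0.979), Gypc (0.935), Tal1 (0.850), Prkar2b (0.847), Ptp4a3 (0.839), Rab27b (0.820), Lmo2 (0.815), Tspan32 (0.808), Plxnd1 (0.787) and Epor (0.779). State 36 did not enter these correlations. They rest chiefly on 4 states, since the mean marker profile was 3.11 SD in state 32, 2.85 in state 9, 2.00 in state 22 and 1.38 in state 13, and 0.124 in the next, state 5. Gypc, a red cell membrane protein, was 0.377 in state 36, against 0.491 in state 9, 0.450 in state 22, 0.233 in state 13 and 0.287 in state 32. Plxnd1, a semaphorin receptor of vessels, was 0.208 in state 36, against 0.108 in state 9, 0.047 in state 22, 0.190 in state 13 and 0.536 in state 32.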

How the data were processed

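Each value is a score that the authors deposited: the centre of a cluster of cells for 1 gene, per the file headers. No scale, log base or cell number is given. Per the submitters' processing notes, Cell Ranger and build mm10 were used, with the version not given in the sources used here. Normalisation, gene choice, clustering and doublet removal by the authors are not given either, and cell barcodes were not analysed here. The 8 libraries are pooled in each of the 42 columns, so depth and precision per state are unknown, and 1 day 8.5 library has a description that names day 8.0. Genes were named by rule: the markers, the 15 largest differences from the other states, genes highest in state 36, the 10 largest in each direction per comparison, the 10 most like the markers, and list members with a level of at least 0.25 in state 36 or states 9, 22, 13 or 32. The members and lists were chosen with earlier results of these data known. Differences, ranks and correlations were computed with Python 3.11.15, pandas 2.3.3, NumPy 2.4.6 and SciPy 1.17.1, and tested on simulated data. Positions are from GENCODE M21 (GRCm38), which covers 704 of the genes. Alternatives were other thresholds, centrings, correlation measures and list scores. Results for some genes are not reported here, and counts include them.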

Additional observations from a re-analysis of the deposited data

How the results depend on the processing

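No paired analysis was possible because no column names a library or replicate. With a threshold of 0.25 in place of 0.5, the genes counted higher and lower were 54 and 31 against states 9 and 22, 35 and 50 against state 13, 27 and 84 against state 32, and 57 and 40 against the mean of the other states. With 0.75 they were 1 and 3, 0 and 1, 1 and 7, and 1 and 0. Against the median of the other states 3 genes were lower. For states 9, 22, 13 and 32 the correlation was 0.786, 0.75, 0.602 and 0.579 by Spearman, and 0.734, 0.698, 0.756 and 0.698 on levels as deposited, which put state 13 first. Without list members (650 genes) it was 0.635, 0.590, 0.511 and 0.532, with state 32 ahead of state 13. On gene-standardised levels it was 0.547, 0.494, 0.537 and 0.474, which put state 13 ahead of state 22. The median place was 0.646 over genes differing by 0.25, and 0.401 with state 13 as the other end. On the blood-forming mesoderm list state 36 ranked 2, or 1 by the mean and 9 over the 2 members of no other list, and on the myeloid list it ranked 2 over such members. By Spearman 4 of the 10 genes most like the markers were shared. Under alternatives chosen after seeing the data, 7 genes were highest in state 36 by 0.25, and at a level of 0.5 the genes held with states 9 and 22, with 13 or 32, and by state 36 alone were 6, 18 and 11. The other 37 recomputed values stayed within their limits. The cause of the shifts was not tested, beyond those that a stricter threshold or fewer genes make by construction. Depth per state is unknown, and low levels in particular may rest on few reads.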

Other observations

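Phosphatase genes, grouped by symbol after their values were seen, were among those highest in state 36. Of the 6 measured genes whose symbols begin with Ptpn, Ptpr, Ptp4a or Dusp, 5 had their highest level of the 42 states in state 36, with a median of 0.466 over the 6, beside 3.23% of all genes. Ptpn7, a tyrosine phosphatase of blood cells, was 0.455 in state 36, against 0.020 in state 9, 0.0029 in state 22, 0.090 in state 13 and 0.116 in state 32. Ptpre, a receptor-type tyrosine phosphatase, was 0.445 in state 36, against 0.068 in state 9, 0.022 in state 22, 0.195 in state 13 and 0.322 in state 32. Dusp2, which acts on MAP kinases, was 0.493 in state 36, against 0.082 in state 9, 0.051 in state 22, 0.378 in state 13 and 0.373 in state 32. Ptp4a3, a phosphatase of the PRL family, was 0.757 in state 36, against 0.485 in state 9, 0.513 in state 22, 0.363 in state 13 and 0.524 in state 32. The sixth gene, Dusp3, was 0.375 in state 36 and 0.459 in state 32, its highest state. The group has no test, and it was picked for its height.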
